A study of Mus musculus with 20 samples.

Results

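The 36 genes described here encode the machinery that stores, docks and fuses synaptic vesicles, and they were chosen by name from the 19214 genes counted in each library. Polyadenylated RNA of the mouse BNST, the bed nucleus of the stria terminalis in the basal forebrain, gave 20 libraries, 5 in each of 4 groups: susceptible females, control females, susceptible males and control males. The susceptible animals belong to a model of anxiety in which mice are confined again and again (chronic restraint), and the controls are labelled only as controls. All mice were kept free of specific pathogens. The sources used here give neither strain, age and the length of the restraint nor the measure by which an animal was called susceptible. Nor do the labels say whether each library is 1 animal or a pool, so the p-values below measure only the spread between libraries. In bulk tissue, fewer neurons of a type and less RNA per neuron cannot be told apart.

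A synaptic vesicle carries the SNARE protein Vamp2 (or Vamp1), which pairs with Stx1a and Snap25 on the plasma membrane to drive fusion. Calcium entering the terminal is read by synaptotagmins, while complexins hold and then assist the assembled SNAREs. Unc13 and Rims proteins prime vesicles at the active zone, a platform built around Bsn and Pclo. The BNST is a mostly GABAergic relay between the amygdala, the hypothalamus and the brainstem that is studied for sustained anxiety states.

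All 36 genes were counted in every library and passed the filter on low counts, with total counts of 14637636 to 17862840 per library. The genes together held between 1.21% and 1.42% of the counts of a library, and this share averaged 1.30% ± 0.09 in susceptible females, 1.35% ± 0.06 in control females, 1.32% ± 0.02 in susceptible males and 1.32% ± 0.03 in control males (SD, n = 5 each). All 12 GABA neuron markers were found in every library, summing to between 1744 and 3335 CPM (a count scaled to the size of its library). Markers of neighbouring regions varied far more. The summed level of 20 striatal neuron markers ran from 1060 to 10322 CPM over the libraries, that of 17 thalamic neuron markers from 580 to 3052 CPM and that of 16 cortical excitatory neuron markers from 396 to 1822 CPM. None of these markers was at 0 in any library.

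The promoters of 27 of the 36 genes are in the RefSeq table for GRCm38.p6, as 37 promoters of 300 bases, from 250 before to 50 after the start of the transcript. They were searched on both strands for short motifs of factors that act on neuronal or broadly active promoters. Both genes with TTCAGCACC, the left part of RE1 (the element of the neuronal repressor REST), are shown first: Syn1 (chrX:20920869-20921168, minus strand) and Unc13a (chr8:71671708-71672007, minus strand). Syp (chrX:7638330-7638629, plus strand) and Stx1a (chr5:135023232-135023531, plus strand) are shown as the marker gene of vesicles and the SNARE gene with the widest range of levels. Capitals mark the motif matches, and each sequence reads 5′ to 3′ along its gene.
Syn1 promoter: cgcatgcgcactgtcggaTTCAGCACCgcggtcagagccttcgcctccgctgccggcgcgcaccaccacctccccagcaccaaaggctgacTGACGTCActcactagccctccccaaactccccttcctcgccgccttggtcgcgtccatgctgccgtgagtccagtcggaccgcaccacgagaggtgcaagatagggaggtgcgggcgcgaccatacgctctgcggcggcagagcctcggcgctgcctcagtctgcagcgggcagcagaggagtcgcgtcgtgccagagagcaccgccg
Unc13a promoter: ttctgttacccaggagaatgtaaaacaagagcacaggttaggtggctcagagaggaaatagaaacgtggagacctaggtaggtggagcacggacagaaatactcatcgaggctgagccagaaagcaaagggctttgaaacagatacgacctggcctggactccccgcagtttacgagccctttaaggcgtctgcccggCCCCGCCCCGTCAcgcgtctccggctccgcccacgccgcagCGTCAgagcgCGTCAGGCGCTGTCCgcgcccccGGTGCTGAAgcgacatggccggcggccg
Syp promoter: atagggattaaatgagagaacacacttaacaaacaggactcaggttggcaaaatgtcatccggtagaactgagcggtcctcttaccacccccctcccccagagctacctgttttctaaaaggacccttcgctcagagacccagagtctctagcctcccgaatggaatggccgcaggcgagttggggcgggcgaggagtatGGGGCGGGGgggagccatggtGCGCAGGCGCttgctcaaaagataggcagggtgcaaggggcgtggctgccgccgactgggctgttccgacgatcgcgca
Stx1a promoter: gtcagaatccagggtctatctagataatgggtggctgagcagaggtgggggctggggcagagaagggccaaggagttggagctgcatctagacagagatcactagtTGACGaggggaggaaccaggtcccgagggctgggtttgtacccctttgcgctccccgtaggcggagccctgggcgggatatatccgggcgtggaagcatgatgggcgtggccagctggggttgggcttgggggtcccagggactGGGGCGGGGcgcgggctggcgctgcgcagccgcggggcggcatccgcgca
In Syn1 the capitals are the RE1 left part at bases 19 to 27 and TGACGTCA, the full cAMP response element (CRE), at bases 92 to 99. In Unc13a, read on the other strand, the RE1 left part lies at bases 273 to 281 and the RE1 right part at bases 255 to 264, both past the transcript start. The other capitals in Unc13a are GGGGCGGGG (GC box) at bases 199 to 207 and CRE core sites (TGACG), the first of which shares base 207 with the GC box. In Syp they are the GC box at bases 201 to 209 and an NRF1 motif at bases 222 to 231, and in Stx1a a CRE core site at bases 107 to 111 and a GC box at bases 251 to 259. The RE1 left part was in 5.41% of the 37 promoters and in 0.371% of all 32851, and the right part in 2.70% and 0.137%. NRF1 was in 13.5% against 4.60% of all promoters and the GC box in 10 of the 37 against 11.4%. The full CRE, found in the Syn1 promoter alone of the 37 (2.70%), was in 1.79% of all promoters. For the CRE core site the shares were 18.9% against 20.8%, for CACGTG (E-box) 10.8% against 7.15% and for TATAAA 8.11% against 13.6%. The MEF2 motif was in none of the 37 and in 0.164% of all. These are matches of letters and not sites shown to be bound.

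Levels between genes were compared per exon length, as TPM. The most abundant transcripts were Cplx1, with a mean of 963 TPM over the 20 libraries, the SNARE gene Snap25 (850 TPM), Cplx2 (824 TPM) and Vamp2 (820 TPM). These are followed by Rab3a (709 TPM), a GTPase carried on vesicles, Syt11 (666 TPM), and Sv2a (539 TPM), the vesicle glycoprotein that binds levetiracetam. The fast calcium sensor Syt1 averaged 537 TPM, the vesicle membrane protein Syp 486 TPM and Syn1, a synapsin that tethers vesicles in clusters, 445 TPM. At the other end were the primer Unc13b (7.94 TPM), the synapsin Syn3 (5.01 TPM) and Cplx3 (4.29 TPM), a complexin known from retinal ribbon synapses, whose lowest raw count was 13 reads. Neighbours in this order often overlapped: Snap25 ranged from 728 to 1069.7 TPM and Vamp2 from 729 to 929 TPM.

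**Figure D1:**
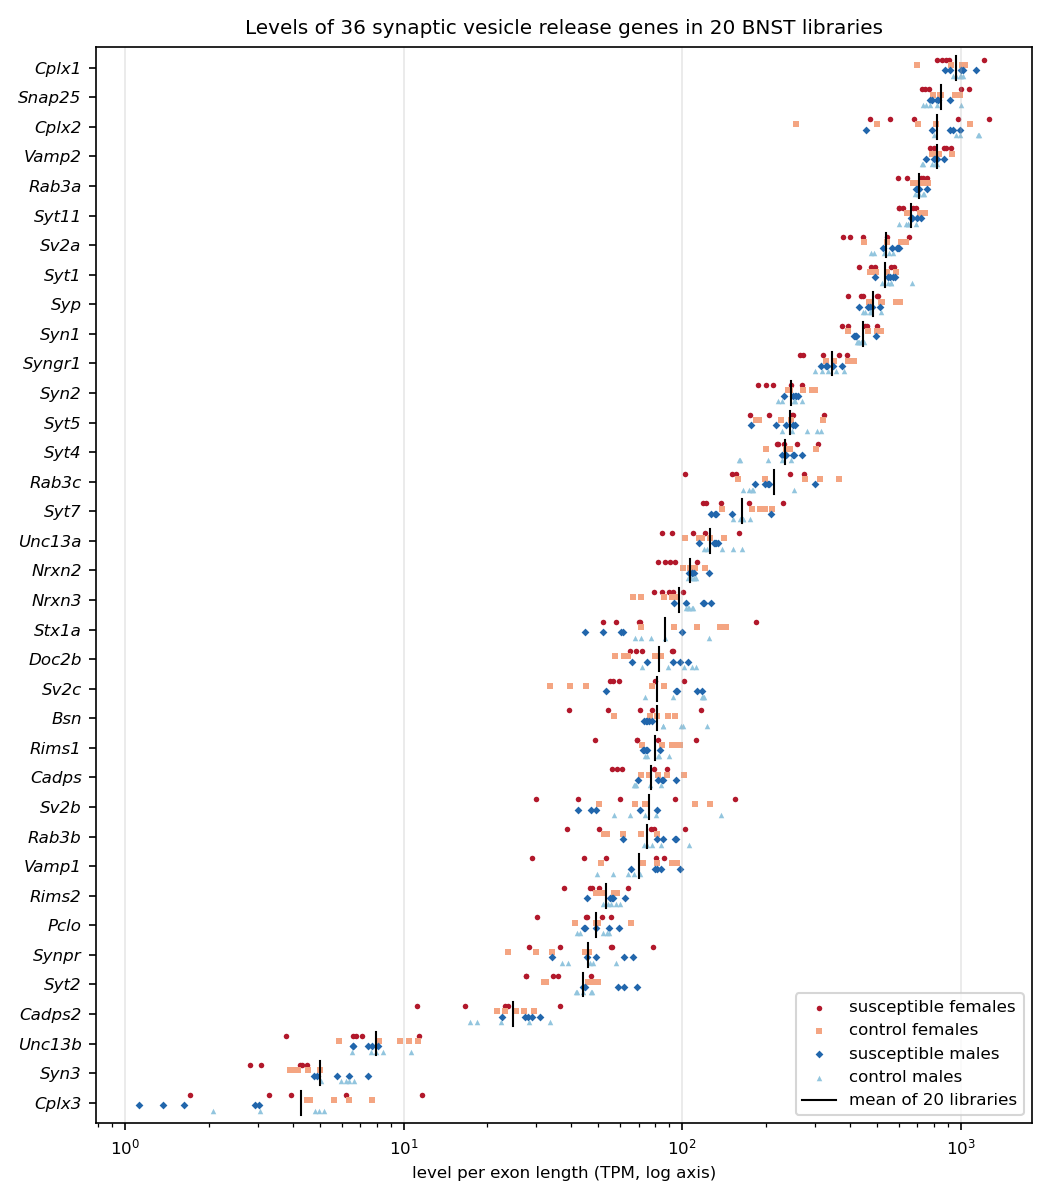
Level of each of the 36 genes in every library, in TPM on a log axis, 1 point per library coloured by group; the black line is the mean of 20 libraries. Cplx1 leads at a mean of 963 TPM and Cplx3 is lowest at 4.29 TPM, and the points of Cplx2, Sv2b, Sv2c, Stx1a and Cplx3 are spread widest.

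In several pairs of related genes 1 member dominated the TPM level, and the groups kept the same leader. Vamp1, a vesicle SNARE abundant in the hindbrain and spinal cord, stood below Vamp2 by a log2 ratio of -3.97 ± 0.69 in susceptible females, -3.45 ± 0.45 in control females, -3.32 ± 0.25 in susceptible males and -3.67 ± 0.22 in control males (SD, n = 5 each). Syt2 relative to Syt1 had log2 ratios of -3.90 ± 0.38, -3.65 ± 0.38, -3.33 ± 0.28 and -3.69 ± 0.18 in the same 4 groups. Unc13b stood below Unc13a by log2 ratios between -4.14 and -3.75 in the group means. Other pairs lay closer with the same leader in every group. Rims2 relative to Rims1 had group means between -0.73 and -0.46, and Syn1 relative to Syn2 between 0.79 and 0.98. The complexins were the exception: Cplx1 relative to Cplx2 averaged 0.33 ± 0.72 in susceptible females, 0.62 ± 0.62 in control females, 0.32 ± 0.57 in susceptible males and -0.03 ± 0.20 in control males, so that either of the 2 could lead in a library. The ratio of Synpr to Syp, related vesicle membrane proteins, averaged -3.25 ± 0.65 in susceptible females, -3.95 ± 0.54 in control females, -3.23 ± 0.46 in susceptible males and -3.38 ± 0.30 in control males, and the ranges of these groups overlapped.

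The genes differed in how steady they were between libraries. Rab3a (from 355 to 441 CPM) and Syt11 (from 767 to 941 CPM) varied least, 1.24-fold and 1.23-fold from lowest to highest. The median standard deviation of log2 CPM over the 20 libraries was 0.239 for the 36 genes and 0.209 for all 14884 genes tested, and 22 of the 36 lay above the value for all genes. The widest spread belonged to Cplx3 (11.3-fold), Cplx2 (5.60-fold), the vesicle glycoprotein Sv2b (5.11-fold), Stx1a (4.67-fold), Sv2c (3.85-fold) and Synpr (3.74-fold).

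Single libraries stood at the ends of these ranges. Sv2b had 68.6, 135, 200, 89.3 and 351 CPM in susceptible females, 135, 152, 233, 107 and 272 CPM in control females, 84.2, 170, 102, 95.8 and 144 CPM in susceptible males and 115, 158, 132, 168 and 268 CPM in control males. Stx1a had 38.2, 41.3, 47.3, 47.6 and 132 CPM in susceptible females, 72.0, 61.5, 91.2, 48.1 and 98.6 CPM in control females, 28.4, 66.6, 34.3, 39.3 and 39.8 CPM in susceptible males and 43.5, 59.4, 46.1, 50.9 and 76.9 CPM in control males. In both genes susceptible female library 5 was the highest of all 20, and all 4 groups overlapped. Cplx2 had 925, 1290.5, 691, 589 and 1687 CPM in susceptible females, 301, 609, 868, 1020.2 and 1370.2 CPM in control females, 926, 1155, 1221, 1098 and 547 CPM in susceptible males and 957, 1470.0, 1184, 1408 and 1100.4 CPM in control males. The lowest Cplx2 level was that of control female library 1, which also had the lowest striatal marker level of the series.

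Snap25, the SNARE with the highest level, was much steadier, at 1358, 1359.6, 1726, 1318 and 1959 CPM in susceptible females, 1361, 1428, 1625, 1378 and 1750.0 CPM in control females, 1250.1, 1394, 1330, 1373 and 1514 CPM in susceptible males and 1272, 1311, 1202, 1388 and 1579.9 CPM in control males. Syn1 had 358, 332, 383, 378 and 447 CPM in susceptible females, 408, 407, 382, 331 and 427 CPM in control females, 329, 347, 338, 338 and 399 CPM in susceptible males and 342, 364, 338, 366 and 335 CPM in control males. The groups overlapped for both genes.

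**Figure D2:**
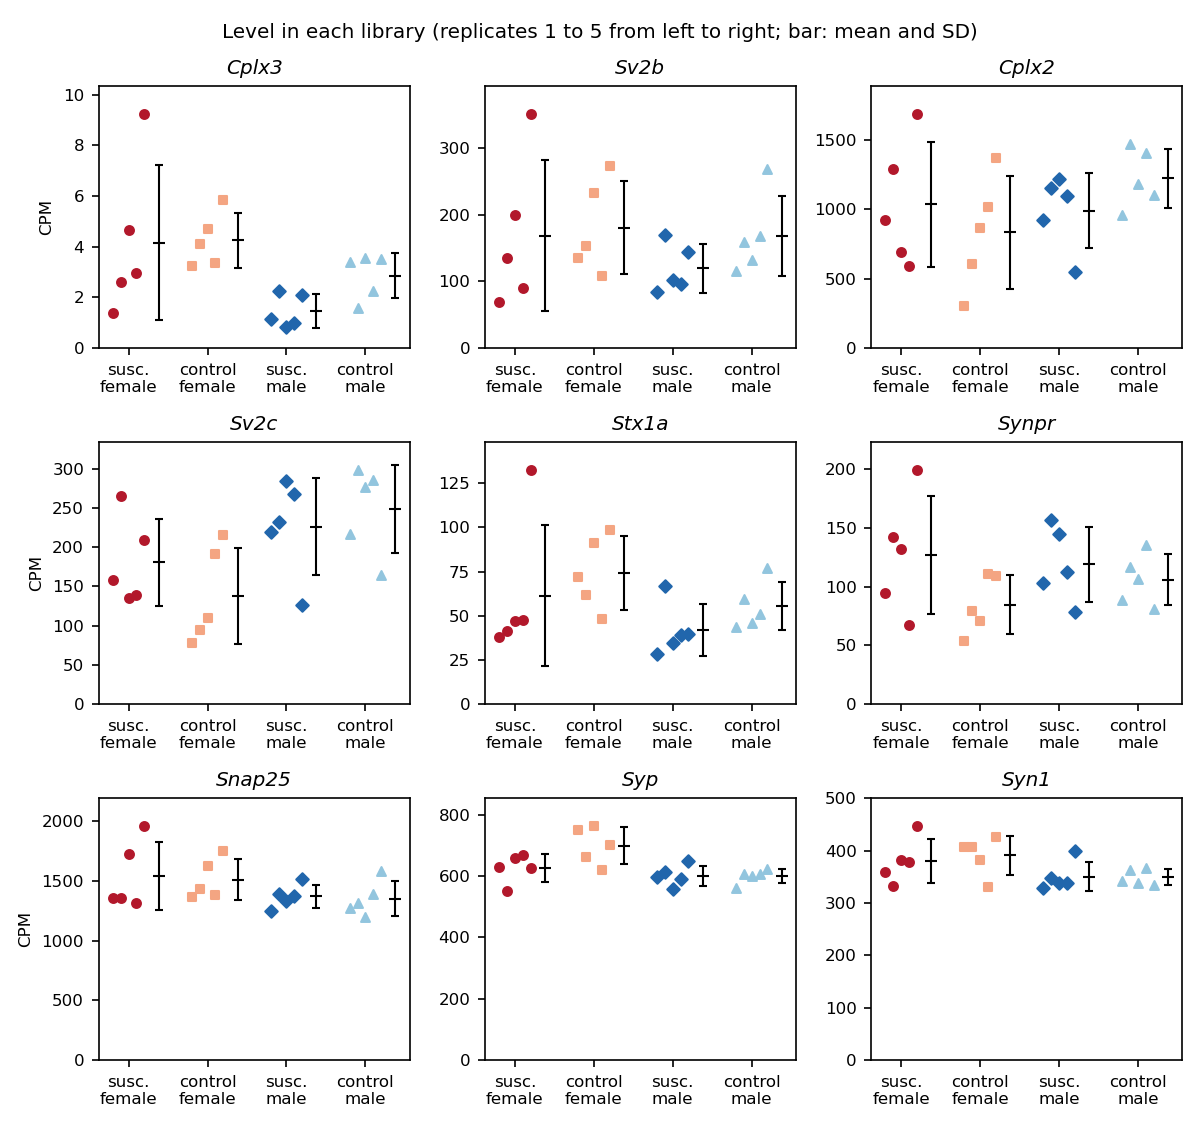
Level in CPM of the 6 genes with the widest spread and of Snap25, Syp and Syn1, 1 point per library in replicate order within each group, with the group mean and SD as bars (n = 5). Susceptible female library 5 is highest for Cplx3, Sv2b, Cplx2, Stx1a, Synpr, Snap25 and Syn1, and Snap25, Syp and Syn1 vary little.

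In females, none of the 36 genes passed the test between susceptible and control libraries (edgeR quasi-likelihood test, adjusted p under 0.05 over 14884 genes), and none of all genes did (0%). The smallest adjusted p among the 36 was 0.774. At an unadjusted p under 0.05 stood 4 of the 36 genes (11.1%), against 5.85% of all genes, and 13 of 36 had a positive log2 fold change, against 51.6% of all genes. The median log2 fold change of the 36 was -0.06. By DESeq2 and by limma voom, likewise, none of the 36 passed.

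The 6 genes with the smallest p in females were the neurexin Nrxn2, the vesicle genes Syn2, Syp and Syngr1 and the primer Cadps, all with lower values in susceptible females, and Synpr with higher values. Nrxn2, an adhesion receptor of the presynaptic membrane, had 330, 303, 328, 394 and 336 CPM in susceptible females and 396, 377, 419, 353 and 380 CPM in control females, with a log2 fold change of -0.19 ± 0.07 (SE). All but 1 of the susceptible libraries lay below the lowest control library, and the groups overlapped through susceptible library 4. Correcting for trends on GC content and exon length together brought this value to -0.07.

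The synapsin Syn2 had 362, 377, 435, 480 and 401 CPM in susceptible females and 500, 508, 475, 427 and 441 CPM in control females (log2 fold change -0.20 ± 0.08, SE). Syp had 630, 551, 659, 668 and 625.0 CPM in susceptible females and 750, 663, 763, 620 and 701 CPM in control females (-0.16 ± 0.07). Groups overlapped for both. Synpr had 94.8, 142, 132, 67.3 and 199 CPM in susceptible females and 53.3, 79.5, 70.5, 111 and 109 CPM in control females (log2 fold change 0.58 ± 0.26). Its groups overlapped, and the value was 0.23 with a score of region markers (striatal minus thalamic) as a covariate.

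Cadps, a primer of dense-core vesicles, had 241, 245, 302, 336 and 228 CPM in susceptible females and 365, 305, 331, 290 and 275 CPM in control females (log2 fold change -0.22 ± 0.11). Syngr1, a tetraspan protein of the vesicle membrane, had 360, 343, 443, 476 and 416 CPM in susceptible females and 475, 468, 495, 430 and 408 CPM in control females (-0.16 ± 0.08). With the region score as a covariate their values were -0.08 and -0.08.

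Region markers moved alongside these values. In susceptible against control females, 20 of 20 striatal markers had a positive log2 fold change (median 0.84) and 16 of 17 thalamic markers a negative one (median -0.49). All 12 GABA neuron markers were positive (median 0.32), while all 16 oligodendrocyte markers (median -0.28), 14 of 16 hypothalamic peptide neuron markers (median -0.92) and 11 of 13 astrocyte markers (median -0.20) were negative. None of these markers passed the test. The summed striatal level ran from 2582 to 10322 CPM in susceptible females and from 1060 to 5368 CPM in control females. The summed thalamic level ran from 580 to 3052 CPM in susceptible females and from 732 to 2990 CPM in control females. The summed oligodendrocyte level ran from 6356 to 8409 CPM in susceptible females and from 6354 to 10793 CPM in control females. Values with the region score are given for Synpr, Cadps and Syngr1 only, and not for Nrxn2, Syn2 and Syp. Beyond the covariate values given, the part of these markers in the results was not tested.

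In males, again none of the 36 genes passed between susceptible and control libraries, as none of all genes did (0%), and the smallest adjusted p among the 36 was 0.424. At an unadjusted p under 0.05 stood 2 of the 36 (5.56%), against 9.67% of all genes. A positive log2 fold change was found for 19 of 36, against 47.5% of all genes, and the median of the 36 was 0.00. By DESeq2 none passed, and by limma voom with sample quality weights 1 of the 36 did. This was Syt4, at a log2 fold change of 0.43 (limma voom adjusted p = 0.0214), in a fit that called 671 of the 14884 genes.

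Syt4, a synaptotagmin of dense-core and other secretory vesicles, had 220, 243, 221, 240 and 255 CPM in susceptible males and 232, 160, 153, 196 and 206 CPM in control males. Its edgeR log2 fold change was 0.31 ± 0.11 (SE), with a 95% confidence interval from 0.08 to 0.54 and the adjusted p of 0.424 given above. The 4 lower control libraries lay below every susceptible library, and control library 1 overlapped them. In females the same gene had 234, 243, 253, 302 and 231 CPM in susceptible libraries and 281, 227, 230, 241 and 202 CPM in control libraries, which overlapped.

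Cplx3 had 1.15, 2.24, 0.821, 0.988 and 2.11 CPM in susceptible males and 3.41, 1.58, 3.55, 2.23 and 3.53 CPM in control males (log2 fold change -0.97 ± 0.42, edgeR adjusted p = 0.481). The groups overlapped, with susceptible libraries 2 and 5 above control library 2 and susceptible library 2 also above control library 4, and counts in susceptible males were as low as 13 reads. With the cortical marker score as a covariate the log2 fold change was -0.68.

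Syt2, the fast calcium sensor of many brainstem and fast-spiking neurons, had 107, 85.1, 131, 115 and 81.7 CPM in susceptible males and 87.1, 93.1, 77.7, 78.9 and 78.3 CPM in control males (log2 fold change 0.32 ± 0.16). Vamp1 had 196, 166, 202, 207 and 242 CPM in susceptible males and 173, 148, 157, 124 and 158 CPM in control males (0.41 ± 0.21). The groups overlapped for both, through 2 susceptible libraries of Syt2 and 1 of Vamp1. Cadps had 305, 260, 305, 315 and 347 CPM in susceptible males and 279, 260, 249, 252 and 293 CPM in control males (0.20 ± 0.11), with groups that overlapped.

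Bsn (chr9:108096022-108190384, minus strand, GRCm38), the giant scaffold of the active zone, was the 1 gene of the 36 whose groups did not overlap in males. It had 288, 295, 296, 284 and 302 CPM in susceptible males and 330, 406, 329, 399 and 454 CPM in control males, a log2 fold change of -0.39 ± 0.20 (edgeR adjusted p = 0.560). Such a gap was found in 2.45% of all genes in this comparison. The susceptible libraries stood close together (SD 7.16 CPM) and the control libraries apart (SD 53.9 CPM). With the cortical score as a covariate the value was -0.14. Of 16 cortical markers 12 had a negative log2 fold change (median -0.60), and none passed the test. Their summed level ran from 454 to 793 CPM in susceptible males and from 499 to 1465 CPM in control males. All 20 striatal markers also had a negative value (median -0.32), with none passing, at summed levels from 2593 to 7478 CPM in susceptible males and from 4445 to 8533 CPM in control males.

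Other markers moved beside the male values of Syt4, Vamp1, Cadps and Syt2 as well. All 16 oligodendrocyte markers (median 0.33), 16 of 17 thalamic markers (median 0.51) and 14 of 16 hypothalamic peptide neuron markers (median 0.57) had a positive log2 fold change in susceptible against control males, and 12 of 14 endothelial and pericyte markers a negative one (median -0.26). None of these passed the test. The summed oligodendrocyte level ran from 6273 to 8195 CPM in susceptible males and from 3867 to 7329 CPM in control males. None of the 4 genes passed the edgeR test in males, either without or with the region score (striatal minus thalamic) as a covariate. That count therefore cannot show what part the region markers have, and the values with the covariate are not given here. The part of the oligodendrocyte, hypothalamic, endothelial and pericyte markers in the values of the 4 genes was not tested.

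Over the mean of both sexes, none of the 36 and none of all genes passed (0%). By DESeq2 and limma voom none of the 36 passed either. The smallest edgeR adjusted p of the 36 was 0.579, for Syt4 (log2 fold change 0.20 ± 0.08, SE), and Syt4 was the only 1 of the 36 with an unadjusted p under 0.05 (2.78%, against 7.71% of all genes). The values that came next were 0.38 ± 0.19 for Synpr, -0.50 ± 0.29 for Cplx3, 0.14 ± 0.08 for the neurexin Nrxn3, -0.08 ± 0.05 for Syp and -0.08 ± 0.05 for Nrxn2. A positive value was found for 15 of 36 genes, against 48.9% of all genes, with a median of -0.02. Nrxn2 changed sign, to 0.059, under the GC and length correction.

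The log2 fold change of susceptible against control males minus that of females, here called the difference of stress effects, was tested directly. Restraint and susceptibility cannot be told apart in these groups. None of the 36 passed by edgeR, as none of all genes did (0%), nor by DESeq2 or limma voom, and the smallest edgeR adjusted p was 0.587. At an unadjusted p under 0.05 stood 4 of the 36 (11.1%), against 8.26% of all genes. These were Cadps, with a difference of log2 fold changes of 0.41 ± 0.15 (SE), Vamp1 (0.77 ± 0.30), Nrxn2 (0.22 ± 0.09) and Syt2 (0.53 ± 0.22). Syn2 (0.23 ± 0.11) and Sv2a (0.31 ± 0.15) came next. In each of these 6 genes the value in females was below that in males, and 95% intervals of the first 4 lay above 0 before adjustment. Marker lists differed in the same comparison. All 17 thalamic markers (median difference 0.94), all 16 hypothalamic peptide neuron markers (1.35) and all 16 oligodendrocyte markers (0.64) had a positive difference, like the 6 genes, and all 20 striatal markers a negative one (-1.20). None of these markers passed, and 13 of the 16 oligodendrocyte markers had an unadjusted p under 0.05. With the region score (striatal minus thalamic) as a covariate, none of the 36 passed here either. As none passed without it, that count cannot show what part the region markers have. The part of the hypothalamic and oligodendrocyte markers in the values of the 6 genes was not tested.

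**Figure D3:**
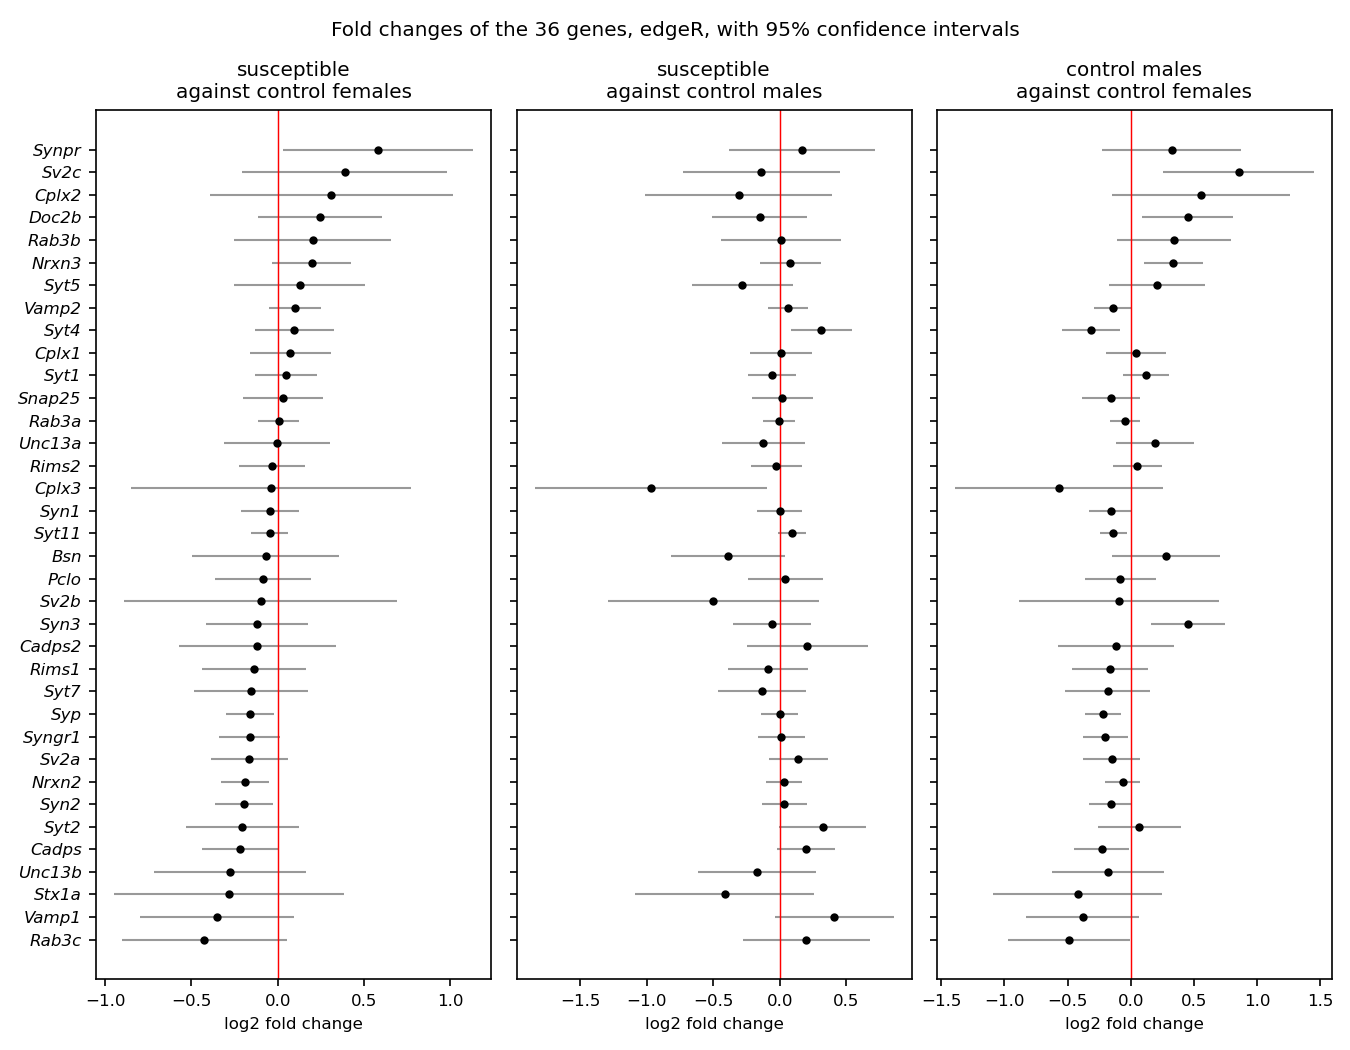
Log2 fold change of each of the 36 genes (edgeR, point) with its 95% confidence interval (line), for susceptible against control females, susceptible against control males and control males against control females; genes are ordered by the first panel. Cplx3 has the widest intervals, and in the right panel Sv2c reaches 0.85.

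Control males against control females gave the most low p-values. None of the 36 passed by edgeR, where 76 genes of all did (0.511%), and the smallest adjusted p of the 36 was 0.123. At an unadjusted p under 0.05 stood 10 of the 36 (27.8%), against 19.2% of all genes. A positive log2 fold change was found for 14 of 36 genes, against 49.5% of all, and the median was -0.11. Other tools made calls: DESeq2 called 455 of the 14884 genes in all, and 2 of the 36, both lower in control males. They were Syp (-0.22, DESeq2 adjusted p = 0.032) and Syt11 (-0.14, DESeq2 adjusted p = 0.0208). The limma voom fit with sample quality weights called 3290 of the 14884 genes in all, and 13 of the 36. Those higher in control males were Sv2c, Cplx2, Doc2b, Syn3, Syt5 and Nrxn3, and those lower were Syt4, Vamp1, Rab3c, Cadps, Syngr1, Syp and Syt11.

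Sv2c (chr13:95954594-96132577, minus strand), a vesicle glycoprotein most abundant in the basal ganglia, had 217, 298, 276, 286 and 165 CPM in control males and 77.4, 94.8, 110, 192 and 215 CPM in control females (edgeR log2 fold change 0.85 ± 0.29, SE). The groups overlapped through control male library 5. Without control female library 5 the log2 fold change was 1.06 and passed the test (edgeR adjusted p = 0.0497). With the region score as a covariate it was 0.34 (edgeR adjusted p = 0.513).

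Nrxn3 (chr12:88722876-90334935, plus strand) had 315, 341, 334, 331 and 316 CPM in control males and 199, 220, 271, 308 and 300 CPM in control females (log2 fold change 0.34 ± 0.11). It was the 1 gene of the 36 whose groups did not overlap here, a gap found in 3.86% of all genes. Syn3 had 17.7, 20.2, 19.7, 19.0 and 14.4 CPM in control males and 14.6, 11.8, 12.9, 12.8 and 14.3 CPM in control females (0.45 ± 0.14), and its groups overlapped narrowly. Exons of Syn3 share 1733 of 12282 bases with Timp3 on the opposite strand, and the strand setting of the counting is not given, so reads of the 2 genes may be mixed.

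Syp had 563, 606, 601, 608 and 624 CPM in control males and 750, 663, 763, 620 and 701 CPM in control females (log2 fold change -0.22 ± 0.07). Syt4 had 232, 160, 153, 196 and 206 CPM in control males and 281, 227, 230, 241 and 202 CPM in control females (-0.32 ± 0.11). Syt11, one of the synaptotagmins that do not bind calcium, had 869, 802, 814, 834 and 767 CPM in control males and 920, 918, 941, 865 and 859 CPM in control females (-0.14 ± 0.05). In each of the 3 genes most control male libraries lay below the control female libraries, and the groups overlapped. The other 4 genes with an unadjusted p under 0.05 were Doc2b (0.45), a sensor of spontaneous release, Rab3c (-0.49), Cadps (-0.23) and Syngr1 (-0.20).

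Marker levels moved with these values too. All 20 striatal markers had a positive log2 fold change in control males against control females (median 0.95), all 17 thalamic markers a negative one (median -1.16) and all 16 oligodendrocyte markers a negative one (median -0.65), of which 1 passed, Ermn (-0.83, edgeR adjusted p = 0.0464). The summed striatal level ran from 4445 to 8533 CPM in control males and from 1060 to 5368 CPM in control females, and the summed thalamic level from 711 to 1518 CPM in control males and from 732 to 2990 CPM in control females. The summed oligodendrocyte level ran from 3867 to 7329 CPM in control males and from 6354 to 10793 CPM in control females, with no marker at 0. Of 14 endothelial and pericyte markers all were positive and 3 passed, Pecam1, Vwf and Ly6c1. With the region score as a covariate 13 genes of all passed. None of the 36 did, as none did without it, so their count cannot show what part the region markers have. The part of the glial and vascular markers in the values of the 36 genes was not tested.

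Between susceptible males and susceptible females none of the 36 passed, where 7 of all genes did (0.047%), and the smallest adjusted p of the 36 was 0.690. At an unadjusted p under 0.05 stood 5 of the 36 (13.9%), against 6.28% of all genes. A positive log2 fold change was found for 18 of 36, against 44.5% of all, with a median of -0.01. Syt2 had 107, 85.1, 131, 115 and 81.7 CPM in susceptible males and 57.7, 73.2, 66.3, 90.9 and 56.5 CPM in susceptible females, a log2 fold change of 0.60 ± 0.16 (SE). The groups overlapped through susceptible female library 4. Without the 5 libraries over 1 CPM of Pmch, a hypothalamic peptide gene, Syt2 stood at 0.79 and passed the test (edgeR adjusted p = 0.0447). In the groups compared, this dropped susceptible female library 4 (highest of its group in Syt2) and susceptible male library 5 (lowest of its group). Each of these groups then held 4 libraries. None of the 36 passed in this comparison under any other alternative.

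Syn3 had 21.8, 14.6, 19.4, 17.3 and 14.5 CPM in susceptible males and 9.52, 14.9, 9.53, 13.2 and 14.3 CPM in susceptible females, a log2 fold change of 0.52 ± 0.14, with the same limit from Timp3. Cplx3 had 1.15, 2.24, 0.821, 0.988 and 2.11 CPM in susceptible males and 1.39, 2.61, 4.64, 2.96 and 9.24 CPM in susceptible females (-1.50 ± 0.42). The groups overlapped for both genes. Next came Vamp2 (-0.18 ± 0.07), Nrxn2 (0.16 ± 0.07) and Nrxn3 (0.22 ± 0.11). In this comparison 14 of 16 cortical markers had a negative log2 fold change (median -0.82), with none passing. Their summed level ran from 454 to 793 CPM in susceptible males and from 396 to 1822 CPM in susceptible females, and the Cplx3 value was -1.13 with the cortical score as a covariate. Also negative were 19 of 20 striatal (median -0.25), 13 of 17 thalamic (-0.26) and 12 of 14 choroid plexus markers (-0.59). Of 14 endothelial and pericyte markers 13 were positive (median 0.25), and 6 of the 14 had an unadjusted p under 0.05. None of these markers passed the test.

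Other presynaptic genes were read from lists that do not include the 36. Of 30 tested partners in priming and fusion, none passed in the stress comparisons, with 12 positive in susceptible against control females and 20 in susceptible against control males. The 2 smallest p-values in females were those of Doc2a (log2 fold change -0.60 ± 0.24) and Rph3a (-0.36 ± 0.15), a Rab3 effector. In males they were those of Vamp7 (0.37 ± 0.12) and Rab27b (0.37 ± 0.12). None of 19 active zone scaffold genes, 6 vesicular transmitter transporters, 16 proton pump subunits, 27 endocytosis genes or 7 presynaptic calcium channel genes passed in either sex.

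The transporters name the transmitter a vesicle holds, and the smallest p in males was that of Slc17a7, the vesicular glutamate transporter of cortical neurons, with a log2 fold change of -1.74 ± 0.996 in susceptible against control males. In females the smallest p-values were those of Slc17a8 (0.37 ± 0.24), another glutamate transporter, and Slc32a1 (0.27 ± 0.18), the vesicular GABA transporter. In endocytosis, Eps15 stood at 0.25 ± 0.07 and Picalm, a clathrin adaptor, at 0.17 ± 0.06 in susceptible against control males. Eps15 was the only gene of these 6 lists to pass in any of the comparisons, in control males against control females (-0.31 ± 0.07, edgeR adjusted p = 0.0464).

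Across the 20 libraries, levels of the 36 genes were compared with the level of marker genes of a region or cell type. Each gene's log2 CPM was set against the mean log2 CPM of 5 marker lists, 180 relations in all, by permutation tests adjusted over the 180. Of these 64 passed, 35 positive and 29 negative, in 26 of the 36 genes (72.2%). Such relations were common among all genes: at the same unadjusted p (at most 0.0177), 50.8% of the 14802 tested genes outside the 5 lists had at least 1. By list, 41.7% of the 36 passed against 29.9% of all genes with striatal markers, 44.4% against 31.8% with thalamic, 33.3% against 20.1% with cortical excitatory, 38.9% against 33.4% with astrocyte and 19.4% against 21.9% with oligodendrocyte markers. With group means removed 61 relations passed after adjustment, 52 of them among the 64. Without the 2 libraries farthest from the median of the marker level 52 passed after adjustment, 43 of them among the 64. The libraries share depth and composition in all of these values, and the smallest p that 100000 permutations can give is 1e-05.

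**Figure D4:**
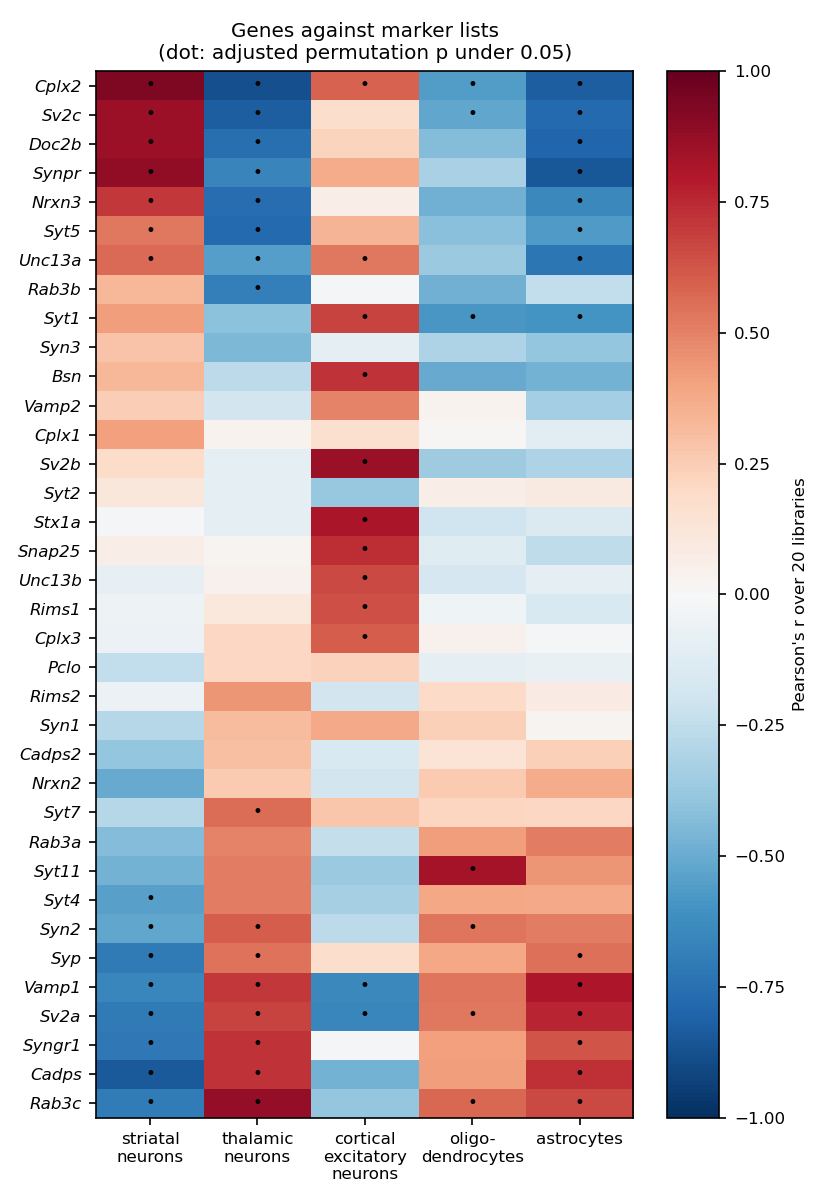
Pearson's r over 20 libraries between each of the 36 genes (rows) and the mean level of each of 5 marker lists (columns), from -1 to 1; a dot marks an adjusted permutation p under 0.05. Cplx2, Sv2c, Doc2b and Synpr are positive with striatal and negative with thalamic markers, and Rab3c, Cadps, Syngr1 and Sv2a show the opposite pattern.

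With striatal markers, the closest relation was that of Cplx2 (r = 0.93, rho = 0.92, adjusted permutation p = 0.0002 for r, n = 20, r = 0.85 without control female library 1 and susceptible male library 5). Synpr (r = 0.88, rho = 0.89), Doc2b (r = 0.86, rho = 0.92) and Sv2c (r = 0.85, rho = 0.79) came next, each with an adjusted permutation p of 0.0002, and without the same 2 libraries r was 0.88, 0.92 and 0.79. Cadps was the most negative (r = -0.84, rho = -0.82, adjusted permutation p = 0.0002, and r = -0.81 without them). With group means removed, r was 0.94 for Cplx2, 0.92 for Synpr, 0.82 for Doc2b, 0.84 for Sv2c and -0.84 for Cadps. The adjusted permutation p for rho ran from 0.0003 to 0.0012 over these 5 genes.

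With thalamic markers the order was nearly turned round. Rab3c was the most positive (r = 0.88, rho = 0.79, adjusted permutation p = 0.0002, n = 20), and Cplx2 the most negative (r = -0.88, rho = -0.90, adjusted permutation p = 0.0002), with 0.84 and -0.89 without control female library 1 and susceptible female library 3. Vamp1 (r = 0.71, rho = 0.73, adjusted permutation p = 0.00285) and Syt5 (r = -0.78, rho = -0.72, adjusted permutation p = 0.000635) also passed. The adjusted permutation p for rho ran from 0.0003 to 0.00415 over these 4 genes. The level of Rab3c was 340 CPM in susceptible female library 1 and 1048 CPM in control female library 1.

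With cortical excitatory markers the strongest were Sv2b (r = 0.87, rho = 0.78, adjusted permutation p = 0.0002, n = 20) and Stx1a (r = 0.81, rho = 0.68, adjusted permutation p = 0.0002). Both had their highest CPM of the 20 libraries in susceptible female library 5. The same held for Snap25, Bsn, Cplx3, Rims1, Unc13b, Unc13a, Cplx2, Vamp2, Syn1 and Synpr. Without that library and control female library 5 r was 0.78 for Sv2b and 0.65 for Stx1a. Snap25 (r = 0.74, rho = 0.59, adjusted permutation p = 0.00324) and Bsn (r = 0.72, rho = 0.71, adjusted permutation p = 0.00197) followed, at 0.49 and 0.62 without these 2 libraries, and Snap25 then no longer passed (adjusted permutation p = 0.11, n = 18). Cplx3 (r = 0.61, rho = 0.54), Rims1 (r = 0.64, rho = 0.52), Unc13b (r = 0.66, rho = 0.46), Unc13a (r = 0.53, rho = 0.44), Vamp1 (r = -0.64, rho = -0.56) and Sv2a (r = -0.65, rho = -0.68) passed over 20 libraries. Without these 2 libraries none of them passed after adjustment (n = 18). Of all 12 relations that passed with cortical markers, 3 then still passed and 6 kept an unadjusted permutation p under 0.05. With group means removed all 12 passed. The adjusted permutation p for rho over 20 libraries was under 0.05 in all of the 10 genes named here except Rims1 (0.0559), Unc13b (0.0966) and Unc13a (0.114).

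**Figure D5:**
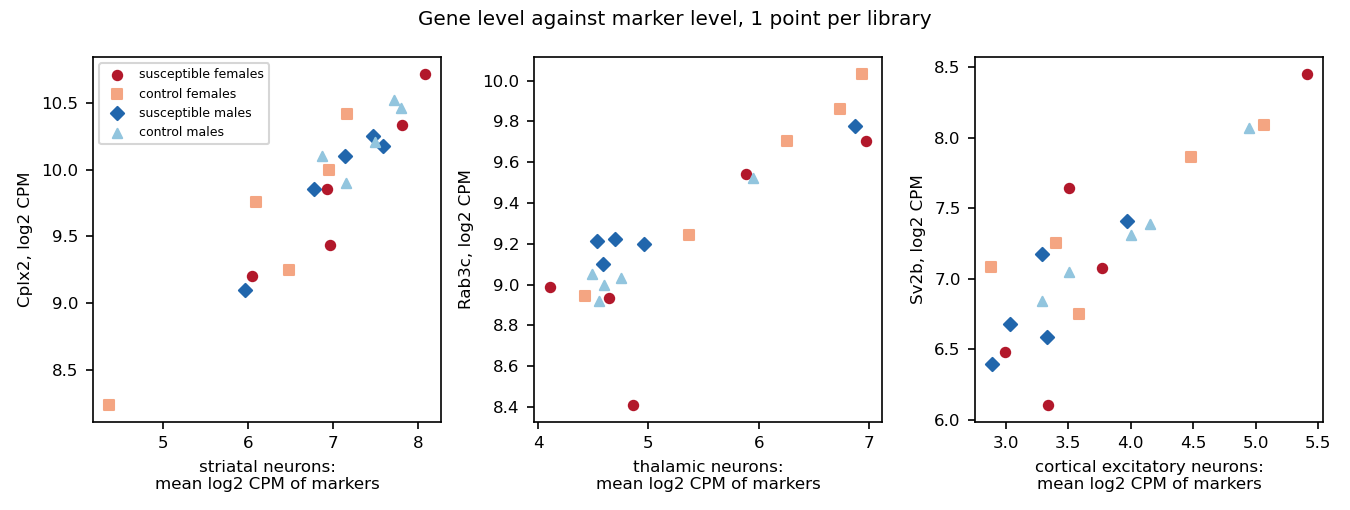
Log2 CPM of Cplx2, Rab3c and Sv2b against the mean log2 CPM of striatal, thalamic and cortical excitatory markers, 1 point per library coloured by group. In each panel the level climbs with the marker level (r = 0.93, 0.88 and 0.87), and libraries of all 4 groups lie along the same course.

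Glial markers showed relations as well, but the marker lists do not vary independently. Control female library 1 had the lowest striatal (4.36) and highest astrocyte mean log2 CPM (7.65). Susceptible female library 5 had the highest striatal (8.09) and lowest astrocyte value (6.81). Relations of a gene with several lists are therefore not separate results. Syt11 followed oligodendrocyte markers (r = 0.84, rho = 0.72, adjusted permutation p = 0.000277, n = 20, r = 0.74 without control male libraries 4 and 5). With group means removed it was the only 1 of the 7 oligodendrocyte relations that still passed (r = 0.69). Vamp1 (r = 0.81, rho = 0.72) and Sv2a (r = 0.76, rho = 0.74) followed astrocyte markers, with adjusted permutation p of 0.000277 and 0.000635, and Synpr (r = -0.85, rho = -0.85) and Cplx2 (r = -0.82, rho = -0.90) ran against them, with 0.000277 each. The adjusted permutation p for rho was at most 0.00415 in these 5 relations. Syn3, Cplx1, Vamp2, Syt2, Pclo, Rims2, Syn1, Cadps2, Nrxn2 and Rab3a passed with none of the 5 lists.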

How the data were processed

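The authors deposited 1 table of raw read counts per gene for each library, made with HISAT2 (an aligner), featureCounts (a read counter) and the mm10 assembly, per the submitters' processing notes. Per the labels' protocols, RNA was extracted with Trizol, polyadenylated RNA was made into cDNA libraries and paired reads were taken on an Illumina instrument. Tool versions and the strand setting are not named there.

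Of 19214 genes, 19206 were matched by identifier to GENCODE M21, which gave symbols, exon lengths and positions, and the other 8 held 0.0026% of counts. Counts were scaled by TMM, filtered with filterByExpr (14884 genes left) and fitted with edgeR 4.0.16 in R 4.3.3 (robust quasi-likelihood, all 20 libraries, a mean for each group). P-values were adjusted over the whole table by Benjamini-Hochberg, and a gene passed at an adjusted p under 0.05. A standard error is the size of the log2 fold change divided by the root of its F statistic. Log2 CPM used a prior count of 2, and TPM came from counts and exon length. The same steps were tested on simulated counts. Alternatives were DESeq2 1.42.0, limma 3.58.1 (voom), sva 3.50.0, other filters and scaling, marker scores as covariates, a GC and length offset, a replicate block, and leaving out libraries.

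The members, gene lists and tests were chosen with earlier results of these data known. In each comparison, genes were named in full when they passed the test and otherwise as the 6 smallest p-values, and per-library values were added for the 6 widest spreads and for Snap25, Syp and Syn1. In the other lists, passing genes or else the 2 smallest p-values were picked out, and only a part of these is named here. Replicate numbers were not taken as pairs. No 2 libraries of a group agreed within sampling noise (smallest chi-square per degree of freedom 5.98). Sequences came from RefSeq, build GRCm38.p6. No protein sequences were used here.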

Additional observations from a re-analysis of the deposited data

Results flagged for a closer look

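A library was looked at again where it stood apart from the other 4 of its group by Dixon's test (gap over range above 0.710). Of 144 sets of gene and group 7 stood out, in 5 genes, and chance alone gives about 1 in 20 sets.

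Susceptible male library 5 stood highest in its group for 3 genes: Rab3c at 876 CPM (the others at 548 to 597), Syt7, a slow calcium sensor, at 380 CPM (237 to 268) and Syn1 at 399 CPM (329 to 347). The same library had 1406 CPM of Ttr, a choroid plexus gene, and 23.5 CPM of Pmch, the highest of its group in both. Control male library 1 had 734 CPM of Rab3c (the others at 484 to 531). Syt7 was low in control female library 4 at 264 CPM (344 to 376).

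Stx1a stood at 132 CPM in susceptible female library 5 (38.2 to 47.6), which also had the highest level of Slc17a7 in its group, at 720 CPM. Nrxn2 stood at 412 CPM in susceptible male library 1 (364 to 372). Whether the marker levels have a part in these values was not tested.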

How the results depend on the processing

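None of the 36 genes passed in susceptible against control females, in the mean of both sexes or in the difference of stress effects under any alternative run. Of all 14884 genes DESeq2 called 24 in susceptible against control males and 29 in the mean of both sexes. It called 455 in control males against control females (2 of the 36) and 15 in susceptible males against susceptible females. Limma voom called 671 in susceptible against control males (1 of the 36), 3290 in control males against control females (13 of the 36) and 11 in susceptible males against susceptible females. In control males against control females, where edgeR called 76, it called 38 with no count filter, 15 with 1 surrogate variable, 13 with the region score, 429 with the cortical score, 19 from the 2 groups alone, 5 without the libraries with Ttr above 100 CPM and 5 without those with Pmch above 1 CPM. In susceptible males against susceptible females, where it called 7, it called 4 from the 2 groups alone, 4 without the Ttr libraries and 13 without the Pmch libraries (1 of the 36). With the number as a replicate block it called 4 there and none of the 36 anywhere. Deviations of same-numbered libraries correlated at -0.58 to 0.64 (11 of 30 pairs over 0.1), those of differently numbered ones at -0.63 to 0.65 (41 of 120), and no library correlated best with its own number in every other group. The labels do not tie the numbers to a shared source, so they were not taken as pairs. The causes were not tested.

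Leaving out 1 library at a time gave 6 to 458 calls over all genes in control males against control females (0 to 1 of the 36), 6 to 20 in susceptible males against susceptible females and 0 to 2 in susceptible against control females. The most came without control female library 5, and without susceptible female library 4 in the other 2. The Nrxn2 value over both sexes, -0.08, was 0.059 with the GC and length offsets and 0.056 with these and the replicate block. The median of the 36 moved by less than 0.098, the SD within groups of their mean log2 CPM, in every comparison and alternative. Every median but that of control males against control females (-0.11) is smaller in size than this SD. A change of sign could therefore count as no move. Depth limits Cplx3 most, with 13 reads in 1 library.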
